A study of Mus musculus with 12 samples.

Results

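The genes described here encode the heat shock proteins, chaperones and folding enzymes of the cytosol, the mitochondria and the endoplasmic reticulum (ER), with regulators of the unfolded protein response. They were chosen by symbol, 46 in all, and 44 of them had a probe set annotated with that symbol alone among the 12393 genes measured so. Hsf1 and Hsp90ab1 were not analysed here. For the 31 members with several probe sets, the one with the highest 12-array mean was used. The 4 groups were wild-type mice on a high-fat diet with 60% of energy from fat, HDAC9 knockout mice (HDAC9-/-), HDAC6 knockout mice (HDAC6-/-) and wild-type mice on regular chow with 25% of energy from fat, with 3 arrays each. All were female C57BL/6 mice of 8 to 12 weeks, and RNA came from whole liver. The labels gave no diet for the knockout mice, so genotype and diet cannot be told apart in a comparison of a knockout with a wild-type group. They did not say whether the 3 samples of a group came from separate mice, and the p-values cover the spread between samples, which may be technical. HDAC6 and HDAC9 are histone deacetylases, enzymes that remove acetyl groups from proteins, and HDAC9 belongs to a class with weak catalytic activity of its own.

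Chaperones bind unfolded stretches of other proteins and let go of them in cycles driven by ATP. In the cytosol HSP40 proteins hand clients to HSP70, the adaptor STIP1 passes some of them on to HSP90, and the barrel-shaped TRiC complex folds actin and tubulin. The transcription factor HSF1 raises these genes when misfolded protein accumulates, and HDAC6, which is mostly cytoplasmic, is known to deacetylate HSP90 and to bind ubiquitinated protein aggregates. In the ER, where hepatocytes fold large amounts of secreted plasma protein, the HSP70 homologue BiP (Hspa5), the lectins calnexin and calreticulin, and protein disulphide isomerases do the folding, and the sensors IRE1, PERK and ATF6 raise their genes through XBP1, ATF4 and cleaved ATF6.

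The arrays were alike in overall signal, with array medians from 5.78 to 5.86 on the log2 scale of the robust multi-array average (RMA). Hdac6 averaged 6.28 ± 0.20 in the HDAC6 knockout livers and 7.91 ± 0.060 in the chow livers (SD, n = 3 each). Hdac9 averaged 4.20 in the HDAC9 knockout livers and 4.30 in the chow livers, near the median of 3.45 for 15 genes with no known expression in liver, so its probe set could not check that label. The 8 measured hepatocyte markers summed to between 91810 and 95850 on the linear scale over the 12 arrays. HDAC9 knockout replicate 2 stood apart: the 17 measured exocrine pancreas markers summed to 5987 there, against at most 1716 on any other array. The high-fat arrays summed to between 983.7 and 1716, and the chow and HDAC6 knockout arrays to between 592.6 and 728.7. The median deviation of these markers from their 12-array means was 3.577 on HDAC9 knockout replicate 2. It was -0.161, -0.312 and -0.369 on the high-fat arrays. The 11 neutrophil markers summed to 1129 on HDAC9 knockout replicate 2, against at most 461.5 on any other array. In RNA from whole tissue, fewer cells of a type and less RNA per cell cannot be told apart.

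The promoters of some members hold the letters that heat shock and ER stress factors are known to bind. The windows printed below were picked from members that hold such letters and had a small p or a large spread. Ahsa1 and Pdia3, which each gave the smallest p of a comparison below, held none of the motifs searched. Hsp90aa1 had no window. The RefSeq promoter windows (GRCm38.p6) run from 250 bases before to 50 bases after a start site, and 39 of the 44 measured members had one. The heat shock element is a run of alternating 5-base units, and 2 adjoining units (GAANNTTC or TTCNNGAA, both strands read) stood in the windows of 14 of 39 members (35.9%), against 17% of the 27025 genes with a window. The longer form with 3 adjoining units, which contains the shorter form, stood in 4 members (10.3%), Hsph1, Chordc1, Hspd1 and Hspe1, against 0.662% of all genes. Hspd1 and Hspe1 lie head to head on chromosome 1, and their windows overlap and share that element. In the windows of 3 heat shock genes below, capitals mark the heat shock elements. Hsph1 lies at chr5:149636266-149636565, minus strand, Hspb1 at chr5:135887669-135887968, plus strand, and Hspa1b at chr17:34959189-34959488, minus strand, each printed 5′ to 3′ along its own strand.
Hsph1: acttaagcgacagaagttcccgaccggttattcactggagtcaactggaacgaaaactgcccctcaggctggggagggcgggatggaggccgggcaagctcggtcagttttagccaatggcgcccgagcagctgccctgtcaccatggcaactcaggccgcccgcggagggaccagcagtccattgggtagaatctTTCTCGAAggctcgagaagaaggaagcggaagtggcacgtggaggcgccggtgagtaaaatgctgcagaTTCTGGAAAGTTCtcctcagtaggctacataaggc
Hspb1: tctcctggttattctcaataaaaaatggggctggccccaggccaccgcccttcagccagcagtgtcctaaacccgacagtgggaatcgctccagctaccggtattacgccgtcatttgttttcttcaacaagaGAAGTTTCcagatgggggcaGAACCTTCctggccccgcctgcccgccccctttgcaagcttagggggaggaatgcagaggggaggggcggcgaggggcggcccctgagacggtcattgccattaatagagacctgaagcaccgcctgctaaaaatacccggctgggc
Hspa1b: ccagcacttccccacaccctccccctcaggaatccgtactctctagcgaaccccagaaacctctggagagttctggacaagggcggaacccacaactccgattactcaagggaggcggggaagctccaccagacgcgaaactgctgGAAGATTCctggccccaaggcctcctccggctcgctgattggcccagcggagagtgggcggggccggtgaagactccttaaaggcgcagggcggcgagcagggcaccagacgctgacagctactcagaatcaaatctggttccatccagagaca
Hsph1 held the 3-unit form just after this start site and a further 2-unit element upstream, Hspb1 held 2 separate 2-unit elements, and Hspa1b held 1.

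The ER stress response element, CCAAT and CCACG with 9 bases between them, stood in 7 of 39 members (17.9%), against 0.137% of all genes. These were Hspa5, Hsp90b1, Dnajc3, Creld2, Calr, Canx and Pdia6, all of them ER chaperones or folding enzymes. A second form, ATTGG and CCACG with 1 base between them, stood in Dnajb11 and Herpud1 (5.13% of members, against 0.0444% of all genes). The amino acid response element TTGCATCA, which ATF4 is known to bind, stood in Herpud1 alone (2.56% of members, against 1.03% of all genes), and TGACGTGG, the unfolded protein response element, stood in 0 members, against 0.714% of all genes. Both strands were read for each, and a match describes letters and not a bound site. Capitals mark the ER stress response element in Dnajc3 (chr14:118937682-118937981, plus strand), Canx (chr11:50325624-50325923, minus strand) and Creld2 (chr15:88819396-88819695, plus strand), which reads it on the opposite strand, and the amino acid response element followed by the second ER form in Herpud1 (chr8:94386179-94386478, plus strand).
Dnajc3: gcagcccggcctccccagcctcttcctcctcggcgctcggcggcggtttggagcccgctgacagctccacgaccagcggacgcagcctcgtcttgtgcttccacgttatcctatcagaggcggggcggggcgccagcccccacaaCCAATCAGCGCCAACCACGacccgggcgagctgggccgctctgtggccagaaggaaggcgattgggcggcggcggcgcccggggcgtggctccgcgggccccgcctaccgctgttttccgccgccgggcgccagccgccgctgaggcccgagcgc
Canx: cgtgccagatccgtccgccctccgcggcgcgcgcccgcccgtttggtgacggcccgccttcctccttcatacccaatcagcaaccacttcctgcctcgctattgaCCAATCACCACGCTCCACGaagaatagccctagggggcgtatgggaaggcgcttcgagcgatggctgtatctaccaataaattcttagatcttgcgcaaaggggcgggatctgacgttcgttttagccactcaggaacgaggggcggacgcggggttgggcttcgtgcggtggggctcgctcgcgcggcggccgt
Creld2: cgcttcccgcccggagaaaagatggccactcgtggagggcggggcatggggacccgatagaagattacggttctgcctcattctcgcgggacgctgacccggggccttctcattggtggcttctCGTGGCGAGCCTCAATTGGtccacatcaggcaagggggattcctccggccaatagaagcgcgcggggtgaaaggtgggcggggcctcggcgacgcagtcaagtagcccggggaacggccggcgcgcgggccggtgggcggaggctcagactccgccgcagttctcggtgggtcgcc
Herpud1: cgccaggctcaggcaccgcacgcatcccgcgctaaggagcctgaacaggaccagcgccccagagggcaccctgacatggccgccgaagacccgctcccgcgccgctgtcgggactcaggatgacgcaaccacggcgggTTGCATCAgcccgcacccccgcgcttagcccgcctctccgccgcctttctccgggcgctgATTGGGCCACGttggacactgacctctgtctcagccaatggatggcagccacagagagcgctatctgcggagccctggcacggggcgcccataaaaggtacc
In these 4 windows the capitals lie upstream of the start site, which follows base 250 of each window.

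The first comparison asked how these genes stood in livers lacking HDAC6. No member passed the threshold, an adjusted p under 0.05 over all genes in limma, where 0.0161% of all genes did. The differences were small and mostly on 1 side: 39 of 44 members (88.64%) had a lower mean in the HDAC6 knockout livers than in the chow livers, against 54.36% of all genes tested. The median log2 difference of the members was -0.17, against -0.014 over all genes. On the HDAC6 knockout arrays, the median deviation of the members from their own 12-array means ran from -0.182 to -0.037. It was 0.134, 0.12 and -0.079 on chow replicates 1, 2 and 3, so chow replicate 3 lay within the HDAC6 knockout range. All 3 HDAC6 knockout arrays lay below all 3 chow arrays for 15 members (34.1%), against 5.31% of all genes, and above them for 0 members, against 4.83%. At an unadjusted p under 0.05, 14 members were lower, against 3.03% of all genes, and 1, the small heat shock protein gene Hspb8, was higher, against 2.74%. By role, the mean was lower for 9 of 10 genes of the HSP70 system, 4 of 4 of the HSP90 system, 1 of 2 small heat shock proteins, 3 of 3 mitochondrial chaperones, 8 of 8 TRiC subunits, 12 of 13 ER folding genes and 2 of 4 unfolded protein response regulators. The 95% interval of the difference lay within 1.5-fold either way for 30 of the 44 members, against 90.3% of all genes. By mean level, all 44 members lay above the 50th percentile of all genes and 25 above the 90th. The shares of all genes, here and below, include dimmer genes and were not matched for level.

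**Figure D1:**
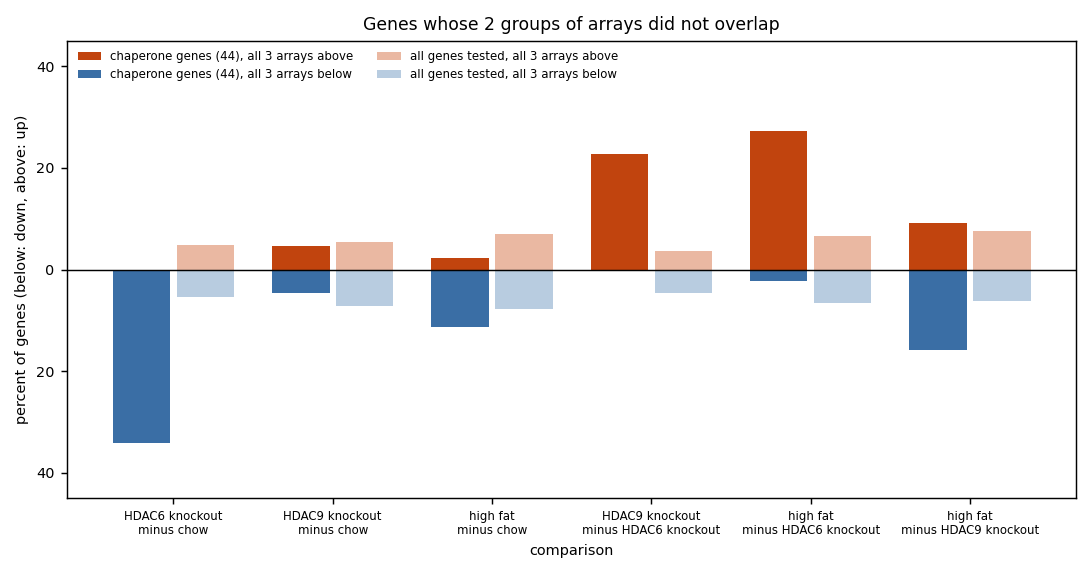
Percent of genes for which all 3 arrays of the group named first lay above (upward bars) or below (downward bars) all 3 arrays of the other group, for the 44 measured chaperone genes (dark) and all 12393 genes (pale), in each of the 6 comparisons. The longest bar is the 34.1% of chaperone genes that lay below chow in the HDAC6 knockout livers, and the bars above 20% on the upward side are the 2 comparisons with the HDAC6 knockout livers as the lower group.

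Across all 4 groups, the HDAC6 knockout livers held the lowest mean for 28 of 44 members (63.64%), against 24.34% of all genes. They held the highest mean for 1 (2.273%, against 20.91% of all genes). The chow livers held the lowest mean for 2 members (4.545%, against 23.05%) and the highest for 17 (38.64%, against 30.45%). The HDAC9 knockout livers held the highest for 18 (40.91%, against 21.67%) and the lowest for 6 (13.64%, against 25.38%). The high-fat livers held the lowest for 8 (18.18%, against 27.24%) and the highest for 8 (18.18%, against 26.97%). No member passed the F-test for any difference among the 4 groups, where 0.331% of all genes did, and 9 members had an unadjusted p under 0.05, against 7.48% of all genes. The smallest adjusted p of that test was 0.299 for Hspb1, followed by 0.309 for Dnaja1, 0.381 for Hsph1 and 0.397 for Ahsa1. The 6 comparisons draw on the same 4 groups, so those that share a group share its arrays.

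**Figure D2:**
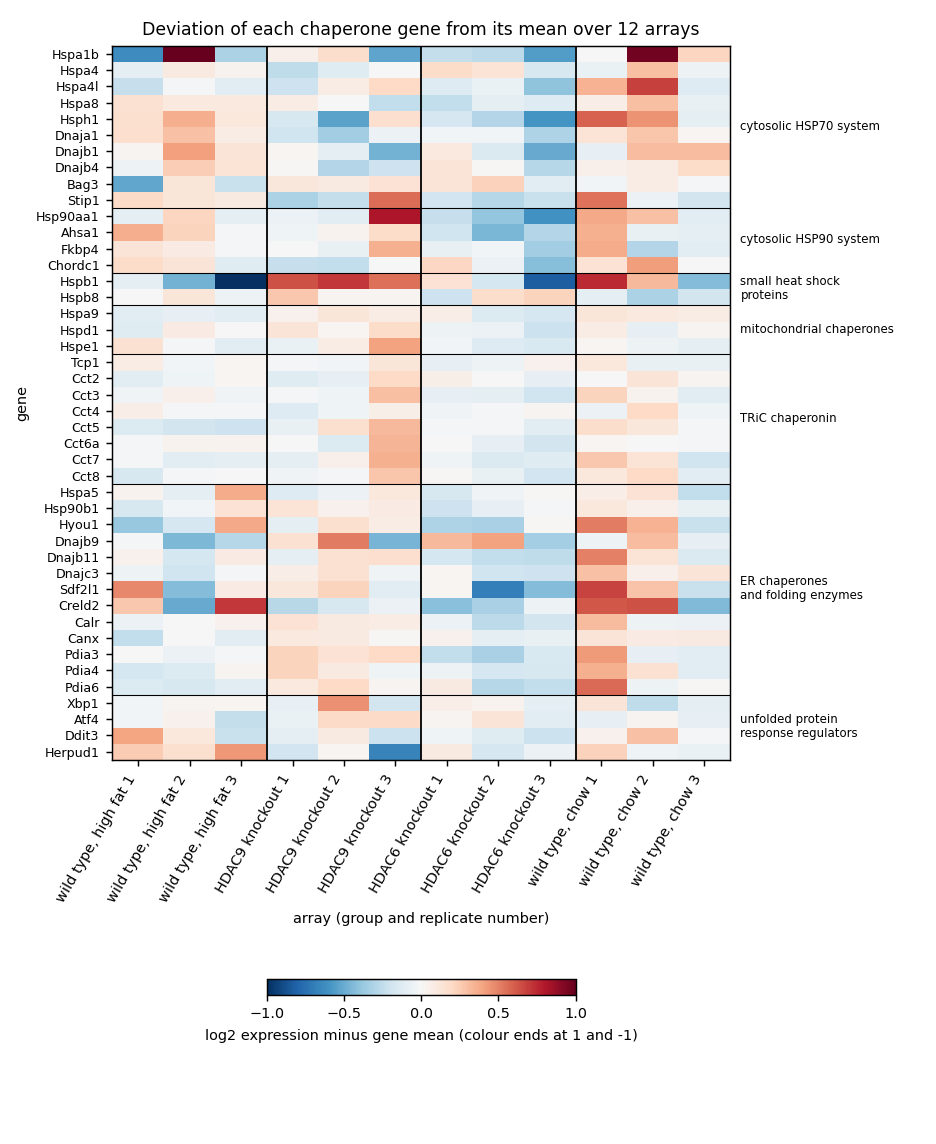
Each row is 1 of the 44 measured chaperone genes, each column 1 array, and the colour is the log2 expression minus the mean of that gene over the 12 arrays (red above, blue below, colours ending at 1 and -1). The 3 HDAC6 knockout columns are mostly pale blue, HDAC9 knockout replicate 3 is red across the TRiC subunits, and chow replicate 1 is red across the ER genes.

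Among the genes of the HSP70 system, Hsph1 had the smallest p of any member against chow in the HDAC6 knockout livers. It encodes HSP110, a nucleotide exchange factor for HSP70. Hsph1 read 8.91, 9.11 and 8.85 in high-fat livers, 8.59, 8.21 and 8.92 in HDAC9 knockout livers, 8.58, 8.46 and 8.15 in HDAC6 knockout livers and 9.34, 9.20 and 8.66 in chow livers. The HDAC6 knockout arrays lay below every chow array and every high-fat array, and they overlapped with the HDAC9 knockout arrays. The log2 difference of HDAC6 knockout from chow was -0.67 (95% interval -1.08 to -0.26, adjusted p = 0.662), which is 1.59-fold lower, that of HDAC9 knockout from chow was -0.49 (SE 0.19, adjusted p = 0.741), and that of high fat from HDAC6 knockout was 0.56 (SE 0.19, adjusted p = 0.448). Without HDAC9 knockout replicate 2 the difference of HDAC9 knockout from chow was -0.31.

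Dnaja1, an HSP40 cochaperone that delivers clients to HSP70, was low in both knockout groups. It read 11.50, 11.62 and 11.41 in high-fat livers, 11.14, 10.98 and 11.27 in HDAC9 knockout livers, 11.31, 11.30 and 11.03 in HDAC6 knockout livers and 11.47, 11.61 and 11.36 in chow livers. All 6 knockout arrays lay below all 6 wild-type arrays. The log2 difference from chow was -0.35 (SE 0.11, adjusted p = 0.583) in HDAC9 knockout livers and -0.27 (SE 0.11, adjusted p = 0.81) in HDAC6 knockout livers. High-fat livers differed from HDAC9 knockout livers by 0.38 (SE 0.11, adjusted p = 0.205) and from HDAC6 knockout livers by 0.30 (SE 0.11, adjusted p = 0.496).

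Hspa1b encodes the stress-inducible HSP70 and varied most between arrays of a group. It read 7.07, 8.83 and 7.38 in high-fat livers, 7.75, 7.87 and 7.17 in HDAC9 knockout livers, 7.46, 7.44 and 7.15 in HDAC6 knockout livers and 7.71, 8.66 and 7.91 in chow livers. The values above 8 were those of high-fat replicate 2 and chow replicate 2, and the HDAC6 knockout arrays lay closest together (SD 0.18). The log2 difference from chow was -0.75 (95% interval -1.52 to 0.020, adjusted p = 0.865) in HDAC6 knockout livers, -0.50 (SE 0.36, adjusted p = 0.875) in HDAC9 knockout livers and -0.33 (SE 0.36, adjusted p = 0.844) in high-fat livers. Hspa1b is nearly identical in sequence to Hspa1a, so how the array divides these transcripts is uncertain; the probe set annotated as Hspa1a averaged 3.01. The constitutive HSP70 gene Hspa8 averaged 12.09 ± 0.033, 11.92 ± 0.17, 11.82 ± 0.076 and 12.07 ± 0.19 (SD, n = 3 each) in high-fat, HDAC9 knockout, HDAC6 knockout and chow livers, and its difference of HDAC6 knockout from chow was -0.26 (SE 0.10, adjusted p = 0.816).

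The other members of the HSP70 system had smaller or less even differences. Hspa4l, a relative of Hsph1, differed from chow by -0.50 (SE 0.18, adjusted p = 0.759) in HDAC6 knockout livers and -0.42 (SE 0.18, adjusted p = 0.511) in high-fat livers. Stip1, the HSP70 to HSP90 adaptor, read 7.54, 7.44 and 7.50 in HDAC6 knockout livers and 8.27, 7.66 and 7.54 in chow livers, with the chow values all above, but its difference of -0.33 (SE 0.21, adjusted p = 0.883) was small against its spread. The HSP40 gene Dnajb1 differed from chow by -0.36 (SE 0.17, adjusted p = 0.826) in HDAC9 knockout livers and by -0.36 (SE 0.17, adjusted p = 0.865) in HDAC6 knockout livers. Dnajb4 differed by -0.26 (SE 0.12, adjusted p = 0.819) in HDAC9 knockout livers, where its arrays lay below chow. Bag3, an HSP70 cochaperone of selective autophagy, was the member of this role with a higher mean than chow in both knockouts, by 0.11 (SE 0.14, adjusted p = 0.927) in HDAC9 knockout livers and 0.073 (SE 0.14, adjusted p = 0.969) in HDAC6 knockout livers. Hspa4 differed by -0.0081 (SE 0.13, adjusted p = 0.996) in HDAC6 knockout livers, the smallest difference of the role there.

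Hsp90aa1, the inducible cytosolic HSP90, was low on all 3 HDAC6 knockout arrays. It read 10.54, 10.84 and 10.53 in high-fat livers, 10.57, 10.52 and 11.43 in HDAC9 knockout livers, 10.39, 10.24 and 10.02 in HDAC6 knockout livers and 11.002, 10.92 and 10.51 in chow livers. The HDAC6 knockout values lay below those of the other 9 arrays, and the highest value was that of HDAC9 knockout replicate 3. The log2 difference from chow was -0.59 (95% interval -1.04 to -0.15, adjusted p = 0.756) in HDAC6 knockout livers, which is 1.51-fold lower. HDAC9 knockout livers differed from HDAC6 knockout livers by 0.62 (SE 0.21, adjusted p = 0.9998), and without HDAC9 knockout replicate 3 that difference was 0.33. High-fat livers differed from HDAC6 knockout livers by 0.42 (SE 0.21, adjusted p = 0.729).

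Ahsa1, which stimulates the ATPase of HSP90, gave the smallest p of any member between the high-fat and HDAC6 knockout livers. It read 9.67, 9.53 and 9.30 in high-fat livers, 9.27, 9.34 and 9.49 in HDAC9 knockout livers, 9.11, 8.85 and 9.02 in HDAC6 knockout livers and 9.66, 9.23 and 9.21 in chow livers. The HDAC6 knockout arrays lay below the other 9. High-fat livers differed from HDAC6 knockout livers by 0.51 (95% interval 0.22 to 0.79, adjusted p = 0.22), HDAC9 knockout livers from HDAC6 knockout livers by 0.38 (SE 0.13, adjusted p = 0.9998), and HDAC6 knockout livers from chow livers by -0.38 (SE 0.13, adjusted p = 0.759). The immunophilin Fkbp4 and the HSP90 cochaperone Chordc1 differed from chow by -0.14 (SE 0.16, adjusted p = 0.946) and -0.28 (SE 0.16, adjusted p = 0.874) in HDAC6 knockout livers.

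**Figure D3:**
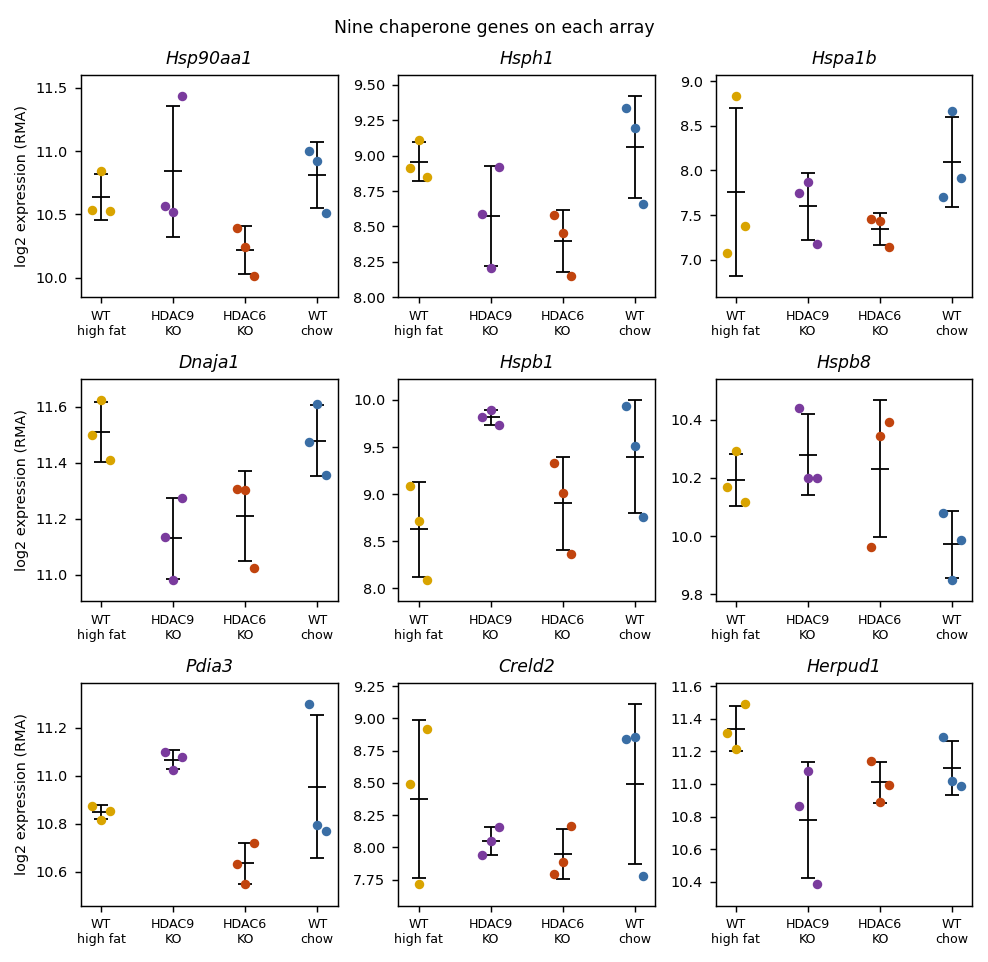
The log2 expression (vertical axes, separate for each gene) of 9 chaperone genes on each array, with the mean and SD of the 3 arrays of a group in black, for wild-type high-fat, HDAC9 knockout, HDAC6 knockout and wild-type chow livers. Hsp90aa1 lies lowest on the 3 HDAC6 knockout arrays, Dnaja1 is lower on all 6 knockout arrays than on any wild-type array, and Hspa1b, Creld2 and Hspb1 spread widely within wild-type groups.

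The small heat shock proteins, which hold unfolded proteins without using ATP, differed in which group was high. Hspb1, which encodes HSP25 of the mouse, read 9.09, 8.71 and 8.09 in high-fat livers, 9.82, 9.89 and 9.74 in HDAC9 knockout livers, 9.33, 9.01 and 8.36 in HDAC6 knockout livers and 9.94, 9.51 and 8.75 in chow livers. The HDAC9 knockout values lay close together, and chow replicate 1 lay above them. The SDs were 0.50 in high-fat, 0.078 in HDAC9 knockout, 0.49 in HDAC6 knockout and 0.60 in chow livers. HDAC9 knockout livers differed from chow livers by 0.42, with overlapping arrays. HDAC6 knockout livers differed from chow livers by -0.50 (limma, SE 0.29, adjusted p = 0.881), also with overlapping arrays. High-fat livers differed from HDAC9 knockout livers by -1.19 (95% interval -1.82 to -0.56, adjusted p = 0.123), 2.28-fold lower and the largest member difference of any comparison here. The Hspb1 values fell from replicate 1 to replicate 3 in high-fat, HDAC6 knockout and chow livers, but not in HDAC9 knockout livers. With the replicate number as a block this difference passed the threshold (limma, adjusted p = 0.00655). The labels do not say that these numbers pair the samples. HDAC9 knockout livers differed from HDAC6 knockout livers by 0.91 (SE 0.29, adjusted p = 0.9998), and high-fat livers from chow livers by -0.77 (SE 0.29, adjusted p = 0.467). The last of these was -0.50 without high-fat replicate 3 and also without chow replicate 1. With a score of clock genes, which ran highest in the high-fat livers, as a covariate, high-fat livers differed from HDAC9 knockout livers by -0.68 (adjusted p = 0.69) and from chow livers by -0.38 (adjusted p = 0.81). That score was at least 1.626 on every high-fat array and at most 1.602 on any other. Score and high-fat group are therefore hard to tell apart in these differences. Hspb8, a partner of Bag3, read 10.17, 10.29 and 10.12 in high-fat livers, 10.44, 10.20 and 10.20 in HDAC9 knockout livers, 9.96, 10.34 and 10.39 in HDAC6 knockout livers and 10.08, 9.85 and 9.99 in chow livers. Its mean was lowest in chow livers, and its differences from chow were 0.31 (SE 0.12, adjusted p = 0.741) in HDAC9 knockout livers, 0.26 (SE 0.12, adjusted p = 0.852) in HDAC6 knockout livers and 0.22 (SE 0.12, adjusted p = 0.656) in high-fat livers.

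The mitochondrial chaperones differed little between groups. Hspe1, the HSP10 lid of the mitochondrial chaperonin, read 11.78, 11.61 and 11.52 in high-fat livers, 11.57, 11.70 and 12.03 in HDAC9 knockout livers, 11.60, 11.50 and 11.48 in HDAC6 knockout livers and 11.65, 11.58 and 11.54 in chow livers. Its highest value was that of HDAC9 knockout replicate 3, and HDAC6 knockout livers differed from chow livers by -0.059 (95% interval -0.29 to 0.18, adjusted p = 0.968). Hspd1, the HSP60 chaperonin itself, differed from chow by 0.10 (SE 0.088, adjusted p = 0.894) in HDAC9 knockout livers and -0.11 (SE 0.088, adjusted p = 0.914) in HDAC6 knockout livers. The mitochondrial HSP70 gene Hspa9 had the smallest spread of any member, an SD within groups of 0.068. Hspa9 averaged 10.23 ± 0.014 in high-fat livers, 10.41 ± 0.040 in HDAC9 knockout livers, 10.25 ± 0.13 in HDAC6 knockout livers and 10.42 ± 0.021 in chow livers (SD, n = 3 each), and its differences from chow were -0.20 (SE 0.083, adjusted p = 0.529) in high-fat livers and -0.17 (SE 0.083, adjusted p = 0.865) in HDAC6 knockout livers. All 3 of these genes read lowest on HDAC6 knockout replicate 3.

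The TRiC subunits, Tcp1 and the Cct genes, had lower means in HDAC6 knockout than in chow livers for 8 of 8, with differences from -0.18 to -0.019 and a median of -0.11, and 0 of them reached an unadjusted p under 0.05 there. Cct5 read 10.36, 10.31 and 10.29 in high-fat livers, 10.42, 10.65 and 10.82 in HDAC9 knockout livers, 10.47, 10.47 and 10.39 in HDAC6 knockout livers and 10.67, 10.61 and 10.48 in chow livers. Every high-fat value lay below the 9 others, and high-fat livers differed from chow livers by -0.27 (95% interval -0.48 to -0.050, adjusted p = 0.46) and from HDAC9 knockout livers by -0.31 (SE 0.10, adjusted p = 0.318). Cct7, which varied most between arrays of a group among the subunits, read 9.56, 9.46 and 9.47 in high-fat livers, 9.47, 9.62 and 9.92 in HDAC9 knockout livers, 9.52, 9.42 and 9.44 in HDAC6 knockout livers and 9.83, 9.70 and 9.37 in chow livers. HDAC9 knockout replicate 3 held the highest value of 7 of the 8 subunits. The 95% interval of Tcp1 for HDAC6 knockout minus chow ran from -0.21 to 0.17.

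Of the 13 ER chaperones and folding enzymes, 12 had a lower mean in HDAC6 knockout than in chow livers, 8 of them at an unadjusted p under 0.05 (limma), and the median difference was -0.29. Over all genes 54.36% had a lower mean and 3.03% were lower at that p. The median deviation of the ER genes from their 12-array means was 0.359, 0.133 and -0.106 on chow replicates 1, 2 and 3. It ran from -0.246 to -0.063 on the HDAC6 knockout arrays, a range that holds chow replicate 3. Dnajc3, an ER cochaperone of BiP, read 10.64, 10.50 and 10.69 in high-fat livers, 10.76, 10.85 and 10.66 in HDAC9 knockout livers, 10.72, 10.50 and 10.49 in HDAC6 knockout livers and 10.99, 10.75 and 10.83 in chow livers. Its HDAC6 knockout and high-fat values all lay below chow, by -0.29 (95% interval -0.50 to -0.078, adjusted p = 0.75) in HDAC6 knockout livers and -0.25 (SE 0.10, adjusted p = 0.49) in high-fat livers. Canx, the membrane lectin calnexin, read 11.03, 11.27 and 11.16 in high-fat livers, 11.37, 11.37 and 11.29 in HDAC9 knockout livers, 11.32, 11.18 and 11.20 in HDAC6 knockout livers and 11.40, 11.36 and 11.36 in chow livers. The chow values of Canx lay close together (SD 0.023), and the differences from chow were -0.22 (95% interval -0.40 to -0.046, adjusted p = 0.436) in high-fat livers and -0.14 (SE 0.082, adjusted p = 0.881) in HDAC6 knockout livers. Read from a probe set without a shared-probe suffix, the Canx difference of high fat from chow was -0.34.

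Pdia3, a disulphide isomerase that works with calnexin and calreticulin, gave the smallest p of any member between the knockouts. It read 10.87, 10.82 and 10.85 in high-fat livers, 11.10, 11.02 and 11.08 in HDAC9 knockout livers, 10.63, 10.55 and 10.72 in HDAC6 knockout livers and 11.30, 10.80 and 10.77 in chow livers. The HDAC6 knockout values lay below the other 9, and the HDAC9 knockout values lay above every array but chow replicate 1. HDAC9 knockout livers differed from HDAC6 knockout livers by 0.43 (95% interval 0.18 to 0.69, adjusted p = 0.9998), 1.35-fold higher. The related isomerases Pdia4 and Pdia6 differed from chow by -0.26 (SE 0.12, adjusted p = 0.853) and -0.32 (SE 0.14, adjusted p = 0.839) in HDAC6 knockout livers, and Calr, calreticulin, by -0.23 (SE 0.10, adjusted p = 0.837).

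Hspa5, which encodes BiP and is the usual readout of ER stress, had overlapping arrays in every comparison. It read 12.21, 12.08 and 12.55 in high-fat livers, 12.05, 12.12 and 12.28 in HDAC9 knockout livers, 12.01, 12.14 and 12.19 in HDAC6 knockout livers and 12.24, 12.32 and 11.93 in chow livers. Its differences from chow were 0.12 (95% interval -0.15 to 0.38, adjusted p = 0.844) in high-fat livers, -0.013 (95% interval -0.28 to 0.25, adjusted p = 0.993) in HDAC9 knockout livers and -0.047 (95% interval -0.31 to 0.22, adjusted p = 0.98) in HDAC6 knockout livers. Creld2, an ER-resident folding factor, was uneven within the wild-type groups. It read 8.49, 7.72 and 8.92 in high-fat livers, 7.94, 8.05 and 8.16 in HDAC9 knockout livers, 7.80, 7.89 and 8.17 in HDAC6 knockout livers and 8.84, 8.86 and 7.78 in chow livers. High-fat replicate 2 and chow replicate 3 lay below the HDAC6 knockout arrays and the other wild-type arrays above all 6 knockout arrays, and HDAC6 knockout livers differed from chow livers by -0.54 (95% interval -1.15 to 0.069, adjusted p = 0.865). The 7 genes whose windows hold the ER stress response element had differences of HDAC6 knockout from chow of -0.047 for Hspa5, -0.13 for Hsp90b1, -0.29 for Dnajc3, -0.54 for Creld2, -0.23 for Calr, -0.14 for Canx and -0.32 for Pdia6. The remaining ER members had -0.62 for Sdf2l1, -0.42 for Hyou1, -0.39 for Dnajb11 and, as the single higher mean, 0.074 for Dnajb9 (SE 0.23).

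The regulators of the unfolded protein response had lower means than chow in HDAC6 knockout livers for 2 of 4, with differences from -0.23 to 0.078. Xbp1, the transcription factor activated by IRE1, read 11.50, 11.56 and 11.55 in high-fat livers, 11.45, 11.99 and 11.35 in HDAC9 knockout livers, 11.60, 11.56 and 11.44 in HDAC6 knockout livers and 11.66, 11.27 and 11.44 in chow livers. Its highest value was that of HDAC9 knockout replicate 2, which carried the pancreas markers, and their part in that value was not tested. Ddit3 encodes CHOP, a factor of prolonged ER stress. It read 7.16, 6.88 and 6.55 in high-fat livers, 6.67, 6.86 and 6.56 in HDAC9 knockout livers, 6.73, 6.65 and 6.56 in HDAC6 knockout livers and 6.81, 7.07 and 6.75 in chow livers, and its difference of HDAC6 knockout from chow was -0.23 (SE 0.15, adjusted p = 0.883). Herpud1, a membrane protein of ER-associated degradation, read 11.31, 11.21 and 11.49 in high-fat livers, 10.87, 11.08 and 10.39 in HDAC9 knockout livers, 11.14, 10.89 and 10.996 in HDAC6 knockout livers and 11.29, 11.02 and 10.99 in chow livers. Its high-fat values lay above all knockout values, and high-fat livers differed from HDAC9 knockout livers by 0.56 (95% interval 0.24 to 0.88, adjusted p = 0.162) and from HDAC6 knockout livers by 0.33 (SE 0.15, adjusted p = 0.673), and the first of these was 0.36 without HDAC9 knockout replicate 3. Atf4, the effector of the integrated stress response, differed from chow by -0.028 (SE 0.11, adjusted p = 0.957) in high-fat livers, 0.15 (SE 0.11, adjusted p = 0.868) in HDAC9 knockout livers and 0.061 (SE 0.11, adjusted p = 0.968) in HDAC6 knockout livers. The array measures total transcript and cannot show the spliced form of Xbp1 or the translation of Atf4.

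**Figure D4:**
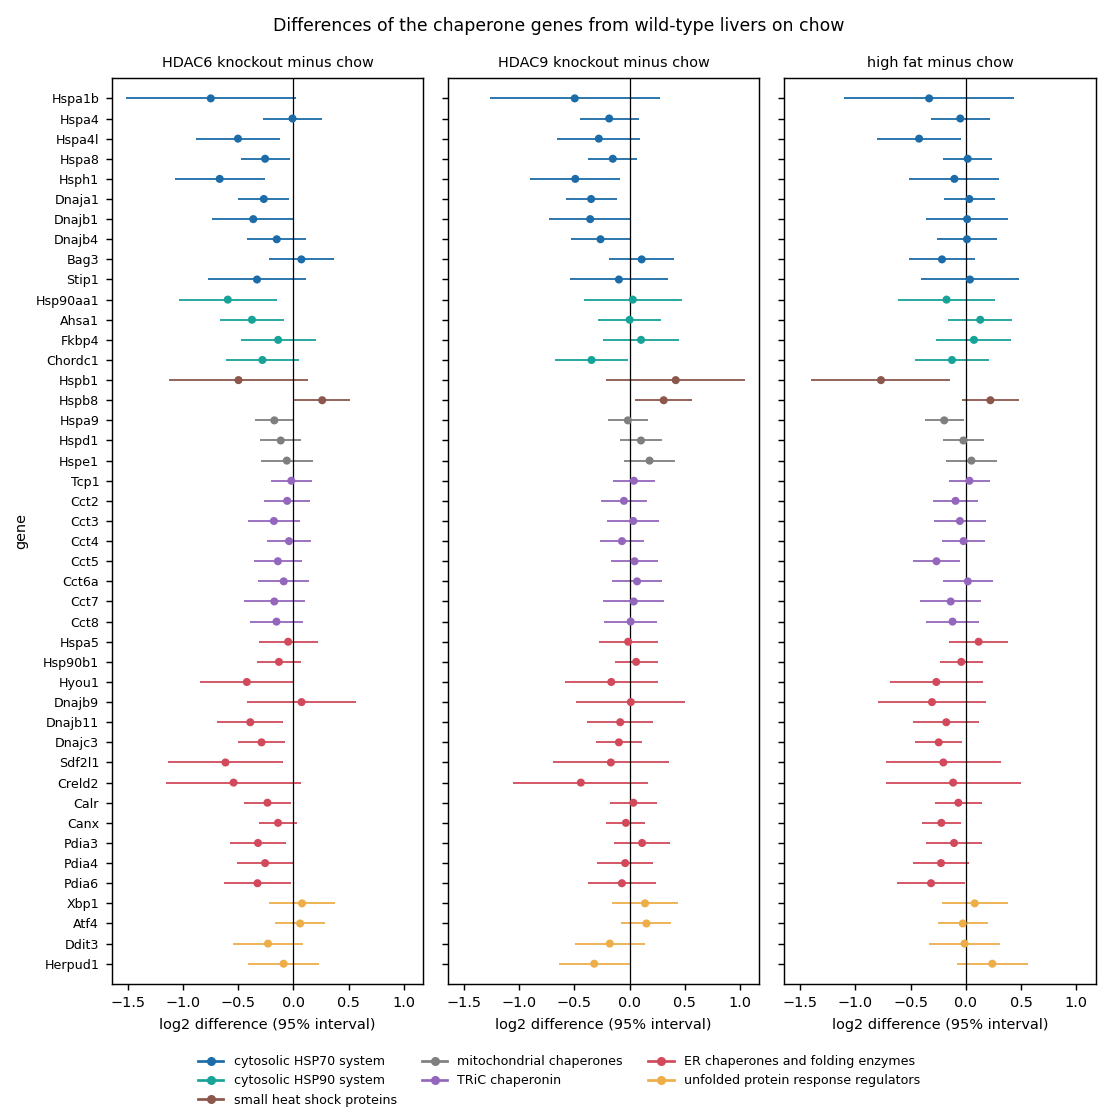
Log2 difference of each of the 44 measured chaperone genes from the chow livers (points, horizontal axes) with its unadjusted 95% interval (lines), for HDAC6 knockout, HDAC9 knockout and high-fat livers, coloured by role. In the HDAC6 knockout panel 39 of 44 points lie left of 0, in the HDAC9 knockout panel 24, and in the high-fat panel 30.

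The second comparison set the HDAC9 knockout livers against chow. No member passed the threshold, where 0.0968% of all genes did. The members lay on both sides, with 20 higher and 24 lower means (54.05% lower over all genes) and a median log2 difference of -0.025, against -0.014 over all genes. That median turned positive, to 0.0054, without HDAC9 knockout replicate 1, and to 0.060 without chow replicate 1, and it was -0.038 without HDAC9 knockout replicate 2, -0.072 without HDAC9 knockout replicate 3 and -0.10 without chow replicate 3. All 3 HDAC9 knockout arrays lay above all 3 chow arrays for Bag3 and Hspb8 (4.55% of members, against 5.39% of all genes) and below them for Dnaja1 and Dnajb4 (4.55%, against 7.21%). The HSP70 system had a lower mean for 9 of 10 genes with a median of -0.27, the TRiC subunits had a higher mean for 6 of 8, and the ER genes a lower mean for 9 of 13 with a median of -0.040. At an unadjusted p under 0.05, 1 member was higher, against 2.49% of all genes, and 4 were lower, against 3.6%. The interval lay within 1.5-fold for 34 of 44 members (77.3%, against 90% of all genes).

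The third comparison set the high-fat livers against chow. No member passed the threshold, where 0.29% of all genes did. Of the members 14 had a higher and 30 a lower mean (68.18% lower, against 52.78% of all genes), with a median log2 difference of -0.081, against -0.010 over all genes. That median was -0.026, -0.050 and -0.13 without chow replicate 1, 2 and 3 in turn. The lower means lay mostly in the ER genes, 12 of 13 with a median of -0.20, while the HSP70 system had 5 of 10. All 3 high-fat arrays lay below all 3 chow arrays for Hspa9, Cct5, Dnajc3, Canx and Pdia6 (11.4%, against 7.71% of all genes) and above them for Hspb8 (2.27%, against 7.02%). At an unadjusted p under 0.05, 7 members were lower, against 4.35% of all genes, and 0 higher, against 4.13%. The interval lay within 1.5-fold for 35 of 44 (79.5%, against 87.9% of all genes).

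The HDAC9 knockout livers were next set against the HDAC6 knockout livers. No member passed the threshold, where 0.00807% of all genes did. Of the members 37 had a higher mean in the HDAC9 knockout livers (84.09%, against 49.69% of all genes), with a median log2 difference of 0.17, against -0.00084 over all genes. All 3 HDAC9 knockout arrays lay above all 3 HDAC6 knockout arrays for 10 members (22.7%, against 3.74% of all genes), Hsp90aa1, Ahsa1, Hspb1, Hspd1, Cct3, Hsp90b1, Dnajb11, Calr, Pdia3 and Pdia4, and below them for 0 members, against 4.71%. The higher means covered 12 of 13 ER genes, 7 of 8 TRiC subunits and 3 of 3 mitochondrial chaperones, and 7 of 10 genes of the HSP70 system. At an unadjusted p under 0.05, 8 members were higher, against 1.78% of all genes, and 0 lower, against 2.02%.

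The high-fat livers were also set against each knockout. Against HDAC6 knockout livers no member passed the threshold, where 0.145% of all genes did, and 34 of 44 members had a higher mean in high-fat livers (77.27%, against 52.05% of all genes, and a median log2 difference of 0.11, or 0.071 without HDAC6 knockout replicate 3, against 0.0068 over all genes). All 3 high-fat arrays lay above all 3 HDAC6 knockout arrays for 12 members (27.3%, against 6.6% of all genes), among them Hspa8, Hsph1, Dnaja1, Stip1, Hsp90aa1, Ahsa1 and Fkbp4 of the cytosol, and below them for Cct5 alone (2.27%, against 6.54%). Against HDAC9 knockout livers no member passed, where 0.436% of all genes did, and 29 of 44 members had a lower mean in high-fat livers (65.91%, against 48.56% of all genes, and a median of -0.087, or -0.038 without HDAC9 knockout replicate 3, against 0.0049 over all genes). The arrays lay above for Hspa8, Dnaja1, Dnajb1 and Herpud1 (9.09%, against 7.67% of all genes) and below for Hspb1, Hspa9, Cct5, Calr, Canx, Pdia3 and Pdia6 (15.9%, against 6.13%). At an unadjusted p under 0.05, 6 members were higher (against 3.58% of all genes) and 0 lower (against 3.69%) than in HDAC6 knockout livers, and 3 were higher (against 4.46%) and 5 lower (against 3.64%) than in HDAC9 knockout livers. Against HDAC9 knockout livers the HSP70 system had a higher mean for 8 of 10 genes and the ER genes a lower mean for 11 of 13.

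Several members varied between arrays of the same group more than most genes. Of the 44 members, 8 (18.18%) lay in the top 5% of all genes by SD within groups, at 0.2975 or more. These were Hspa1b with an SD of 0.57, Hspb1 with 0.46, Creld2 with 0.45, Sdf2l1 with 0.38, Dnajb9 with 0.36, Hsp90aa1 with 0.32, Stip1 with 0.31 and Hyou1 with 0.30. They belong to the heat-inducible cytosolic genes and to the ER genes, and the median SD was 0.165 over the members and 0.152 over all genes.

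**Figure D5:**
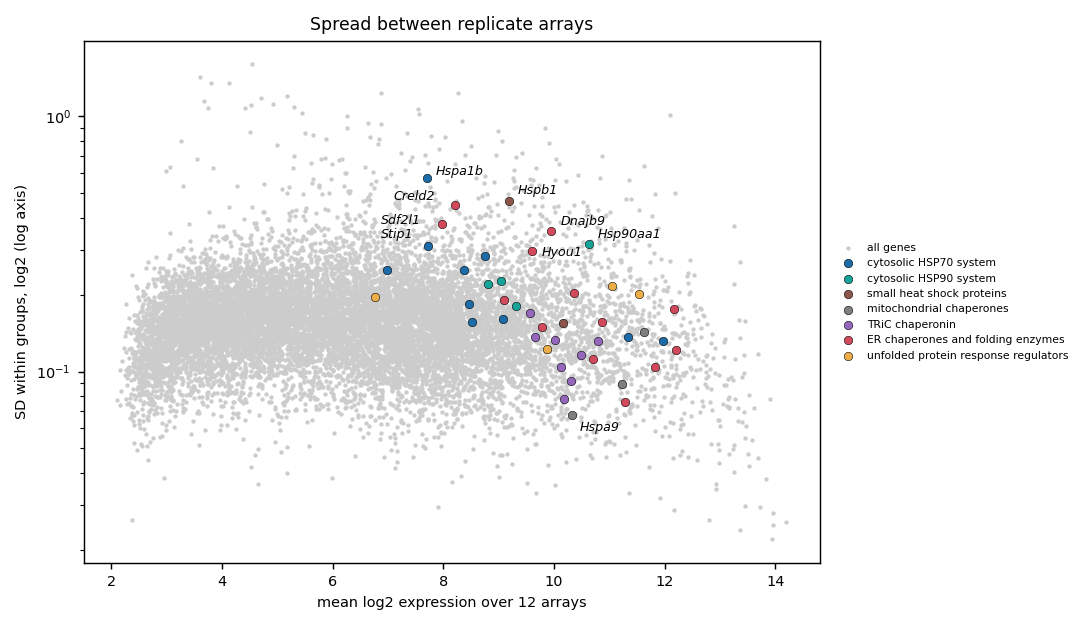
SD within groups (vertical log axis) against the mean log2 expression over the 12 arrays (horizontal axis) for all genes (grey) and the 44 measured chaperone genes, coloured by role. Hspa1b lies highest among the chaperone genes at 0.57 and Hspa9 lowest at 0.068.

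Single arrays carried parts of the pattern. HDAC9 knockout replicate 3 held the highest value of 12 members, against 8.376% of all genes, among them 7 TRiC subunits, Hsp90aa1 at 11.43 and Stip1 at 8.28. Chow replicate 1 held the highest value of 12 members, against 6.867% of all genes, 9 of them ER genes, and HDAC6 knockout replicate 3 held the lowest value of 14 members, against 11.49% of all genes. With any 1 of the 6 arrays left out, the number of members with a lower mean in HDAC6 knockout than in chow livers ran from 36 to 41 and the median log2 difference from -0.27 to -0.13, the first of these without chow replicate 3.

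Beside the used probe sets, the members had 50 others at or above a mean of 4.389, the 25th percentile of all genes. Of these, 42 had a lower mean in HDAC6 knockout than in chow livers, 42 a higher mean in HDAC9 knockout than in HDAC6 knockout livers, and 37 a higher mean in high-fat than in HDAC6 knockout livers. Over all genes, read from 1 probe set each, the shares were 54.36%, 49.69% and 52.05%. The 50 read the same genes on the same arrays as the used probe sets. For HDAC6 knockout minus chow, 42 had the same sign as the used one. Over the 12 arrays some followed it weakly, with r of -0.26 and 0.18 for Hspa4, 0.20 for 1 of Hspa8 and 0.048 for 1 of Hyou1. None of the 50 passed the threshold in any comparison (limma).

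Further chaperone and stress genes outside the 46 were read from 4 lists. Of 30 measured cytosolic chaperones and cochaperones, 22 had a lower mean in HDAC6 knockout than in chow livers (median -0.078), of 37 ER folding and degradation genes 29 did (median -0.10), of 22 sensors and targets of the stress responses 16 did (median -0.13), and of 8 mitochondrial chaperones and proteases 2 did (median 0.066). These were 73.33%, 78.38%, 72.73% and 25% of the lists, against 54.36% of all genes (median -0.014). No gene of these lists passed the threshold in any of the 6 comparisons (limma). At an unadjusted p under 0.05 (limma) the HDAC6 knockout livers had 1, 2, 1 and 0 lower and 0 higher genes in the lists in that order. Over all genes 3.03% were lower and 2.74% higher at that p. Fkbp5, an immunophilin of the HSP90 and glucocorticoid receptor complex, read 8.01, 7.93 and 7.94 in HDAC6 knockout livers and 8.72, 8.65 and 8.55 in chow livers, with no overlap and a difference of -0.68 (95% interval -1.07 to -0.30, adjusted p = 0.559). Serp1, a stabiliser of ER membrane proteins, differed by -0.30 (SE 0.11, adjusted p = 0.76) in the same comparison. Atf5, a transcription factor of the integrated and mitochondrial stress responses, read 11.27, 11.26 and 11.07 in high-fat livers, 11.05, 10.83 and 11.27 in HDAC9 knockout livers, 10.61, 10.58 and 10.84 in HDAC6 knockout livers and 10.91, 10.06 and 10.56 in chow livers. Atf5 differed from chow by 0.69 (95% interval 0.33 to 1.06, adjusted p = 0.156) in high-fat livers and by 0.54 (SE 0.17, adjusted p = 0.604) in HDAC9 knockout livers.

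Others with small p-values did not pass either. The prefoldin subunit gene Pfdn1 differed by 0.41 (SE 0.14, adjusted p = 0.385) between high-fat and chow livers, and the ER reductase gene Dnajc10 by -0.29 (SE 0.11, adjusted p = 0.728) between HDAC9 knockout and chow livers. The isomerase gene Pdia5 read 8.73, 8.86 and 8.99 in high-fat livers and 9.26, 9.91 and 9.05 in HDAC9 knockout livers, with the highest value on HDAC9 knockout replicate 2, and these groups differed by -0.55 (SE 0.17, adjusted p = 0.283). HDAC9 knockout livers differed from HDAC6 knockout livers by 0.46 (SE 0.17, adjusted p = 0.9998) in Pdia5 and by 0.31 (SE 0.14, adjusted p = 0.9998) in Erp29. Clpx, the unfoldase of a mitochondrial protease, differed by -0.74 (SE 0.25, adjusted p = 0.375) between high-fat and HDAC9 knockout livers, and Fkbp11 by 0.65 (SE 0.22, adjusted p = 0.455) between high-fat and HDAC6 knockout livers.

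Other measures also differed along the groups. Of 11 Kupffer cell markers, 11 had a higher mean than chow in high-fat livers (median log2 difference 0.36), 11 in HDAC9 knockout livers (0.32) and 10 in HDAC6 knockout livers (0.25). Their summed linear level ran from 9422 to 10950 in high-fat livers, 8718 to 10850 in HDAC9 knockout livers, 9106 to 9746 in HDAC6 knockout livers and 6921 to 9128 in chow livers. Of all genes, 47.22%, 45.95% and 45.64% had a higher mean than chow in those 3 groups in turn. In HDAC9 knockout livers 11 of 11 neutrophil (median 0.30), 4 of 4 adipocyte (0.29) and 17 of 17 exocrine pancreas markers (1.38) had a higher mean than chow. In high-fat livers 8, 3 and 13 of these did, and in HDAC6 knockout livers 7, 2 and 6. The 12 immediate-early genes, which respond within minutes to stress and handling, summed to between 4810 and 5223 in high-fat livers, 2122 and 3249 in HDAC9 knockout livers, 1922 and 2021 in HDAC6 knockout livers and 1518 and 2642 in chow livers. A clock score, the mean of 6 clock genes high with Dbp minus that of 5 high with Arntl, ran from 1.63 to 2.79 in high-fat livers, -1.23 to 0.83 in HDAC9 knockout livers, -0.72 to 1.60 in HDAC6 knockout livers and -0.68 to 1.44 in chow livers. With that score in the model, the median member difference of HDAC6 knockout from chow was -0.17 and 39 of 44 members were lower, and the difference of high fat from HDAC6 knockout in Hsph1 was 0.85. The high-fat scores did not overlap with those of the other groups, so score and group are hard to tell apart in that Hsph1 difference. The part of the Kupffer cell, neutrophil, adipocyte, exocrine pancreas and immediate-early genes in the chaperone differences was not tested.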

How the data were processed

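RNA of 12 whole-liver samples was amplified, labelled with biotin and hybridised to Affymetrix Mouse430A arrays, per the labels. The deposited values were log2 expression per probe set, made by the authors with the robust multi-array average (RMA), per the submitters' processing notes. RMA corrects background, normalizes between arrays and summarises probes, which narrows differences of dim probe sets. The software and chip definition behind RMA are not given in the sources used here. The values were used as deposited, and 0 columns were left unused.

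Of 22626 probe sets, 20380 had 1 gene symbol in the platform annotation, 691 several and 1555 none. Genes were read from those with 1 symbol, by the probe set of highest mean, which gave 12393 genes. Groups were compared with limma 3.58.1 in R 4.3.3 (4 group means over 12 arrays, moderated statistics with a mean-variance trend, 14.32 degrees of freedom, two-sided). The p-values were adjusted by Benjamini-Hochberg over all genes of a comparison, with a threshold of 0.05. The 95% intervals are unadjusted. The number of arrays, 3 per group, limits the precision: the median SE was 0.124, and an exact rank test of 3 against 3 cannot go below p = 0.1. Counts of members, their medians and their non-overlapping arrays are descriptions without a test. The members, lists and alternatives were chosen with earlier results of these data known. Values on every array are given for the 3 members of smallest p per comparison, for Hspa1b, Hspa5, Hsp90aa1, Ddit3 and Xbp1, and for the member of largest SD within groups in each role, and the 2 of smallest p per comparison among other chaperone genes are named. The procedure was tested on simulated data. Promoter windows came from RefSeq (GRCm38.p6), and figures were drawn with matplotlib 3.10.9 in Python 3.11.15.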

Additional observations from a re-analysis of the deposited data

How the results depend on the processing

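No member passed the threshold in the 6 comparisons under 9 of the 10 alternatives tried, by the F-test under 8 of the 9 that allow it (a fit of 2 groups gives none), or in either with any 1 array left out. The exception was the replicate block, under which Hspb1 was called between high-fat and HDAC9 knockout livers (limma, log2 difference -1.19, adjusted p = 0.00655, against a range of 0.00655 to 0.690 over its alternatives). That was 1 member in that comparison and 1 by the F-test, and the block changed no other member's call. The labels do not say that the replicate numbers pair the samples. Deviations of same-numbered arrays correlated at -0.15 to 0.15, which cannot settle whether those arrays are paired. The number of members with a lower mean in HDAC6 knockout than in chow livers ran from 31 of 38 members, with probe sets of shared-probe suffixes left out, to 39 of 44. The higher means were 27 to 38 in HDAC9 knockout against HDAC6 knockout livers and 27 to 34 in high-fat against HDAC6 knockout livers. These counts are out of 44 members, or out of 38 where those suffixes were left out. Leaving out those suffixes moved the median member difference to 0.097 for HDAC9 knockout minus HDAC6 knockout and to -0.036 for high fat minus HDAC9 knockout, and the clock score as a covariate moved the last of these to -0.030. The median for HDAC9 knockout minus chow (-0.025 as reported) was -0.0040 with the mean of all probe sets, -0.055 without the suffixes and -0.045 with the clock score, and that for high fat minus chow (-0.081) was -0.047 without the suffixes and -0.036 with the clock score. The cause of these shifts was not tested. Fewer members were measured with the suffixes left out. The high-fat livers had clock scores above those of every other array, so score and group are hard to tell apart in their comparisons.

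With 1 array left out, the median member difference ran from -0.27 to -0.13 for HDAC6 knockout minus chow, from -0.10 to 0.060 for HDAC9 knockout minus chow, from -0.13 to -0.026 for high fat minus chow, from 0.12 to 0.20 for HDAC9 knockout minus HDAC6 knockout, from 0.071 to 0.13 for high fat minus HDAC6 knockout, and from -0.098 to -0.038 for high fat minus HDAC9 knockout. The sign turned for HDAC9 knockout minus chow without HDAC9 knockout replicate 1 (0.0054) and without chow replicate 1 (0.060). The lower or higher means ran from 36 to 41, from 34 to 38 and from 30 to 36 in the 3 comparisons with HDAC6 knockout livers.

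Over all genes the counts called moved more. They ran from 1 to 4 for HDAC6 knockout minus chow (2 as reported), 0 to 18 for HDAC9 knockout minus chow (12; 0 with only the 2 groups fitted), 6 to 36 for high fat minus chow (36), 1 to 4 for HDAC9 knockout minus HDAC6 knockout (1), 8 to 56 for high fat minus HDAC6 knockout (18), 9 to 97 for high fat minus HDAC9 knockout (54) and 15 to 70 for the F-test (41). Signal over background was not tested for single probe sets.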
